A study of Homo sapiens with 6 samples.

Results

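The genes described here are 10 components of the BCR-ABL and STAT5 pathway, chosen by name: the fusion partners BCR and ABL1, the adaptors GRB2, GAB2 and CRKL, the transcription factors STAT5A and STAT5B, and the STAT5 target genes CISH, SOCS2 and PIM1. Each of the 9 genes other than GRB2 had exactly 1 row in all 3 deposited tables, out of 16586 symbols with a single row and a value in every group, and the level of GRB2 was not analysed here. The 6 samples were K562 cells, an established human leukemia line, stably carrying a PiggyBac transposon that was either empty (CTR) or held wild type C/EBPα (CEBPA) or its short p30 isoform (P30) under a Tet-inducible promoter, with 2 replicates per line. All lines, CTR included, received 200 ng/ml doxycycline for 48 h, and whether a line came from 1 clone is not given in the sources used here. The deposited values are the authors' FPKM, fragments scaled by transcript length and library size, with 1 value per gene and group in which the replicates are pooled. No SD, test or p-value could therefore be computed from them for any value below, and the fragment counts behind the values are not given in the files used here. The paper reports its own test of differential expression between these groups, whose results are not used here.

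K562 cells come from a chronic myeloid leukemia in blast crisis and carry the Philadelphia translocation, which joins the 5' part of BCR to the 3' part of ABL1. The fused tyrosine kinase is active without a ligand. GRB2 binds a phosphotyrosine in its BCR part and brings in GAB2, which leads to the RAS and PI3K arms, CRKL is one of its most prominent substrates, and STAT5A and STAT5B, once phosphorylated, pair up, enter the nucleus and bind the sequence TTCNNNGAA. CISH and SOCS2 encode inhibitors of the SOCS family that damp JAK and STAT signaling, and PIM1 encodes a serine/threonine kinase that favours survival and growth. The values are transcript levels, so kinase activity and STAT5 phosphorylation are not part of them.

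As a check of the label, 5 of the 6 erythroid markers of K562 cells used here had a row, among them GATA1, at 185 FPKM in CTR. Their summed level was 1330.5 (CTR), 523 (CEBPA) and 809 FPKM (P30). HBG1 made up much of this sum, with 872, 389 and 410 FPKM, whereas GATA1 had 53.1 FPKM in CEBPA and 193 in P30. In CEBPA vs CTR all 5 were lower by 2-fold, where 6.92% of all genes were. Their log2 differences ran from -1.89 (KLF1) to -1.16 (HBG1), with a median of -1.64. In P30 vs CTR, 4 of the 5 had a log2 difference below 0, HBG1 the lowest (-1.09), and GATA1 had 0.06. The sum of the 3 granulocyte markers with a row, of 6 named, was 3.88 FPKM in CTR, against 8413 in CEBPA and 23.4 in P30. The lymphoid sum over 3 of 4 markers was 13.2, 4.34 and 13.2 FPKM, and the stromal sum over 2 of 2 was 3.38, 2.68 and 4.62. Of the monocyte and macrophage markers, 2 of 3 had a row, with CD14 at 0.215, 1.10 and 0.228 FPKM and CD68 at 505, 430.0 and 579.5. No marker with a row was at 0 in any group. The erythroid and granulocyte markers thus moved in CEBPA together with the pathway genes below, and their part in those differences was not tested. In bulk RNA, fewer cells of a type and less RNA per cell cannot be told apart. CEBPA itself, the induced gene, was not analysed here.

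Promoter windows are shown for CISH and PIM1, the 2 genes of the set that fell by at least 2-fold in CEBPA vs CTR. Both are the 250 bases just upstream of the RefSeq start site, written 5' to 3' on the strand of the gene, with each match to the STAT5 motif TTCNNNGAA in capitals. They were placed by exact match on GRCh37, the build of the authors' hg19 alignment, at chr3:50649206-50649455 (minus strand) for CISH and chr6:37137678-37137927 (plus strand) for PIM1.
CISH: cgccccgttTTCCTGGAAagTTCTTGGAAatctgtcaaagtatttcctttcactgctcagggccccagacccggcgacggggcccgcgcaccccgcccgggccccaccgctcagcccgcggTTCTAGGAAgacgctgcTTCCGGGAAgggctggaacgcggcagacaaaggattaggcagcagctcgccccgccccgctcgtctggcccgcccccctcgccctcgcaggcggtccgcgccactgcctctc
PIM1: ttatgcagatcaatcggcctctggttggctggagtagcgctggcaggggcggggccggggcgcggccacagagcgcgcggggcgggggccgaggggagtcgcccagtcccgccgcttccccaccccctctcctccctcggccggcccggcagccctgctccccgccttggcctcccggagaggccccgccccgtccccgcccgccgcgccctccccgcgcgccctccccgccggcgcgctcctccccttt
The CISH window held 4 matches, TTCCTGGAA, TTCTTGGAA, TTCTAGGAA and TTCCGGGAA, which begin 241, 230, 129 and 112 bases upstream of the start. The pattern TTCNNNGAA is its own reverse complement, so a search of 1 strand finds the matches of both. The PIM1 window held 0 matches, and so did the 10 windows of the 7 other genes for which RefSeq gives one (3 for STAT5A, 2 for GAB2), while SOCS2 had no window. Of 35116 RefSeq windows of the same length, 6.57% held at least 1 match and 0.0142%, or 5 windows, held 4 or more. The C/EBP motif TTGCNNAA, searched on both strands, was in none of the 12 windows of the set and in 9.05% of all windows. A match is a description of the letters, and its absence says only that they are not in these 250 bases.

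The first comparison asks how the pathway differed when wild type C/EBPα was induced. In CEBPA vs CTR the STAT5 target genes PIM1 and CISH showed the largest falls of the set, to 27.0% and 26.6% of the CTR level, while CRKL and SOCS2 stayed closest to it. The transcripts of the factors themselves, STAT5A and STAT5B, and of the fusion partners ABL1 and BCR lay between, 35.8% to 47.4% below CTR. Differences are given as CEBPA minus CTR of log2(FPKM + 1), for genes above 1 FPKM in either group, and a gene is counted as changed at 1 or more, that is 2-fold. By this count 2 of 9 genes were lower and 0 higher, where 6.92% of all 13673 genes compared were lower and 14.0% higher. With a fold of 1.5 in place of 2, 6 of 9 were lower and 0 higher, against 18.6% and 24.0% of all genes. The median difference of the 9 genes was -0.71, beside -0.01 over all genes.

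**Figure D1:**
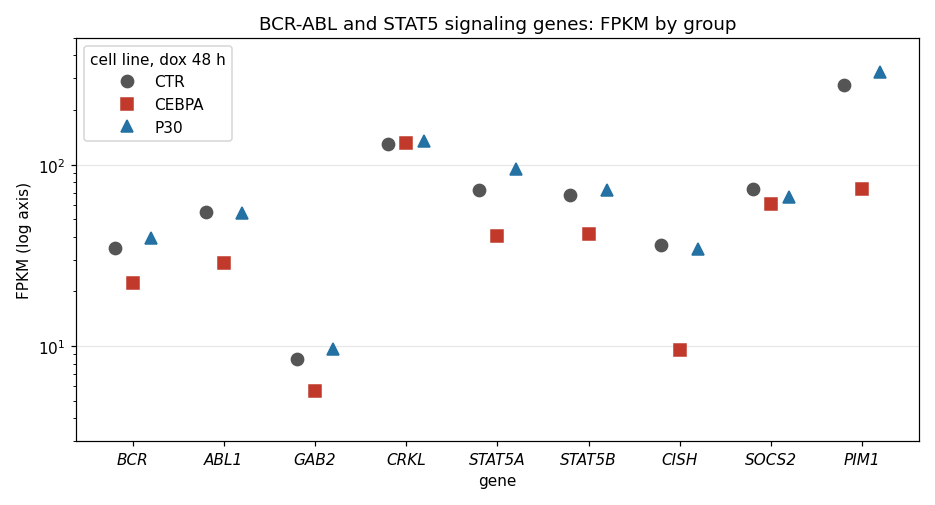
FPKM (log axis) of the 9 genes in CTR (circles), CEBPA (squares) and P30 (triangles), 1 value per group with the replicates pooled and therefore no error bar. The CEBPA value is the lowest of the 3 for every gene but CRKL, and the gap is widest for CISH (9.55 against 35.9 and 34.2) and PIM1 (73.8 against 273 and 325).

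The fusion partners were followed first. BCR, which encodes a regulator of small GTPases and gives the fusion its promoter and 5' exons, lies on the plus strand of chromosome 22 (chr22:23521891-23660224). Its level was 34.5 (CTR), 22.2 (CEBPA) and 39.4 FPKM (P30). The difference was -0.62 in CEBPA vs CTR and 17.4% of all genes were as low or lower. ABL1, a tyrosine kinase gene that gives the fusion its kinase domain, is on the plus strand of chromosome 9 (chr9:133588430-133763062). Its values were 54.8 FPKM in CTR, against 28.8 in CEBPA and 54.3 in P30. ABL1 was thus lower in CEBPA by 0.90 on the log2 scale, just short of 2-fold, a difference as low or lower in 8.88% of all genes. The ratio of BCR to ABL1, both per length, was 0.631 in CTR, 0.770 in CEBPA and 0.725 in P30. A value per gene holds fragments of the fusion, of the reciprocal product and of the unjoined alleles together, and these cannot be told apart here.

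The adaptors differed from each other. CRKL, whose protein links phosphorylated BCR-ABL to other signaling proteins through SH2 and SH3 domains (plus strand, chr22:21271695-21308035), had 130.2 (CTR), 132 (CEBPA) and 135 FPKM (P30). It was among the most level genes of the set, with a difference of 0.02 in CEBPA vs CTR and of 0.06 between P30 and CTR. GAB2, a docking protein that binds PI3K and the phosphatase SHP2 (minus strand, chr11:77926339-78129394), had 8.51 FPKM in CTR, against 5.67 in CEBPA and 9.68 in P30, and was the lowest expressed gene of the set in each group. Its difference in CEBPA vs CTR was -0.51, and 21.9% of all genes were as low or lower.

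STAT5A (plus strand, chr17:40439565-40463961) and STAT5B (minus strand, chr17:40351194-40440651) are neighbours that point away from each other and overlap by 1087 bp in the annotation used here, a later Gencode release than the authors'. Reads that fit both of these closely related genes could have been split between them in counting. STAT5A had 72.5 (CTR), 40.3 (CEBPA) and 95.2 FPKM (P30). STAT5B had 68.2, 41.3 and 72.9 FPKM in the same order. The pair was at nearly the same level in CTR and in CEBPA, with a ratio of STAT5A to STAT5B of 1.06 and 0.975, and apart in P30, where the ratio was 1.31. In CEBPA vs CTR the differences were -0.83 for STAT5A and -0.71 for STAT5B, values as low or lower in 10.6% and 14.1% of all genes.

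The STAT5 share among 5 STAT genes was then computed, because FPKM are per length and can be added. STAT5A and STAT5B summed to 141 FPKM in CTR, against 81.6 in CEBPA and 168 in P30. With STAT2, STAT3 and STAT6 added, the sums were 273, 253 and 318 FPKM. STAT5A and STAT5B made up 51.5% of this total in CTR, 32.2% in CEBPA and 52.8% in P30. STAT3, the factor downstream of interleukin 6 and G-CSF, had 67.2, 92.3 and 77.4 FPKM, and STAT6, that of interleukin 4, had 37.9, 54.3 and 43.9. STAT2 had 27.2, 25.0 and 28.7 FPKM, and STAT4 was not analysed here.

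**Figure D2:**
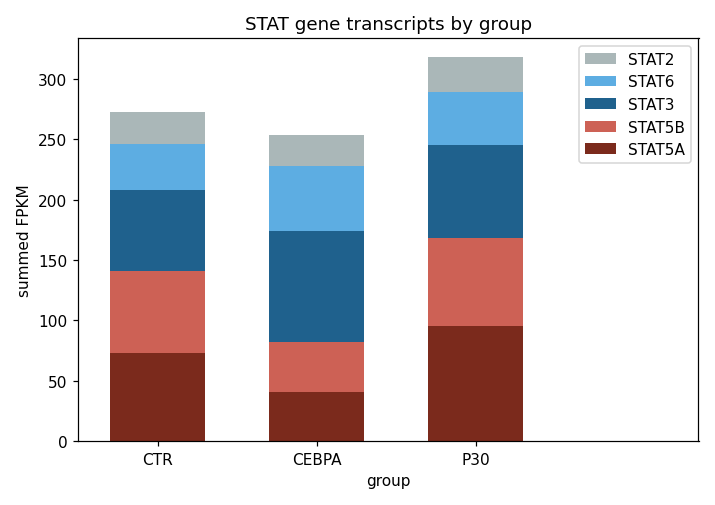
Summed FPKM of STAT5A, STAT5B, STAT3, STAT6 and STAT2, stacked by gene, in CTR, CEBPA and P30 (1 pooled value per group, no error bars). The total is 273, 253 and 318 FPKM, while the STAT5A and STAT5B part at the bottom is 141, 81.6 and 168.

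The STAT5 target genes differed among themselves. PIM1 (plus strand, chr6:37137928-37143204) had 273 (CTR), 73.8 (CEBPA) and 325 FPKM (P30). It was 73.0% lower in CEBPA than in CTR, a log2 difference of -1.87, and 127 of the 13673 genes (0.929%) were as low or lower, PIM1 included. PIM1 was the highest gene of the set in CTR and P30, above 97.9% and 98.3% of genes, and in CEBPA it ranked below CRKL. CISH (minus strand, chr3:50643920-50649205), the gene with the 4 motif matches above, had 35.9 FPKM in CTR, against 9.55 in CEBPA and 34.2 in P30. It was 73.4% lower in CEBPA than in CTR, a log2 difference of -1.81, as low or lower in 1.05% of genes. SOCS2 (plus strand, chr12:93963590-93977263) had 73.5 (CTR), 60.9 (CEBPA) and 66.0 FPKM (P30). Its difference in CEBPA vs CTR was -0.27, well within the bulk of genes, of which 34.9% were as low or lower. CISH and SOCS2 encode related inhibitors, and the ratio of CISH to SOCS2 was 0.488 in CTR, 0.157 in CEBPA and 0.519 in P30.

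**Figure D3:**
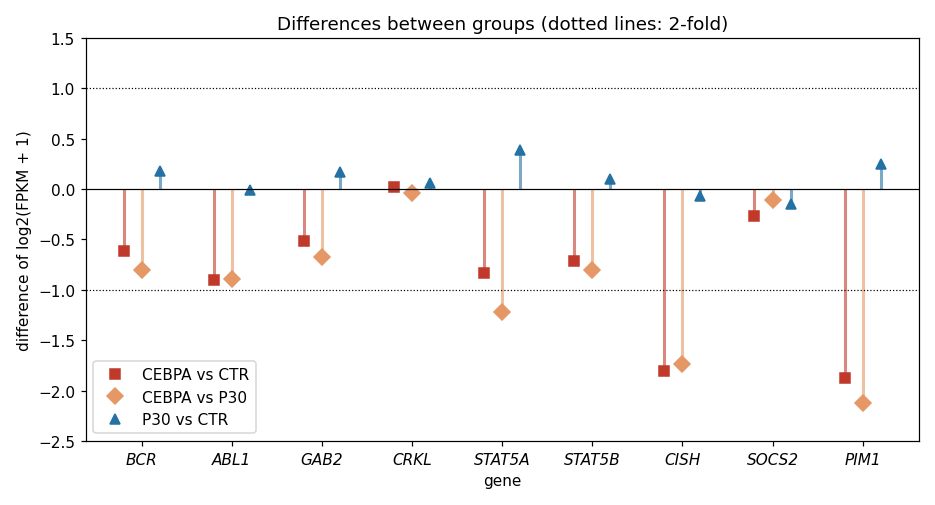
Differences of log2(FPKM + 1) for the 9 genes in CEBPA vs CTR (squares), CEBPA vs P30 (diamonds) and P30 vs CTR (triangles), with dotted lines at 2-fold. CISH and PIM1 lie beyond 2-fold in both comparisons with CEBPA, STAT5A only in CEBPA vs P30 (-1.22), and no gene in P30 vs CTR.

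The order of levels was PIM1, CRKL, SOCS2, STAT5A, STAT5B, ABL1, CISH, BCR and GAB2 in CTR. In CEBPA it was CRKL, PIM1, SOCS2, STAT5B, STAT5A, ABL1, BCR, CISH and GAB2. In P30 it was PIM1, CRKL, STAT5A, STAT5B, SOCS2, ABL1, BCR, CISH and GAB2. Neighbours such as SOCS2 and STAT5A in CTR (73.5 and 72.5 FPKM), STAT5B and STAT5A in CEBPA (41.3 and 40.3) or CISH and BCR in CTR (35.9 and 34.5) cannot be ordered without replicate values. The place of CISH among all genes over 1 FPKM in at least 1 group went from above 77.2% of them in CTR to above 43.8% in CEBPA, whereas CRKL stood above 94.4% and 95.3%.

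The second comparison asks how the same genes stood when p30, the isoform made in leukemias with N-terminal CEBPA mutations, was induced. In P30 vs CTR, 0 of 9 genes were lower and 0 higher by 2-fold, where 0.613% of 12395 genes were lower and 1.02% higher. The same counts were found with a fold of 1.5, against 2.63% and 2.69% of genes. STAT5A had the largest difference, 0.39, and 5.94% of all genes were as high or higher. PIM1 came next with 0.25, followed by BCR with 0.18 and GAB2 with 0.17. STAT5B differed by 0.10, ABL1 by -0.01 and CISH by -0.07. The lowest value was that of SOCS2, -0.15. The spread of all genes in this comparison, the median absolute deviation scaled to an SD, was 0.20, so that only STAT5A and PIM1 lay beyond it. The median of the 9 genes was 0.10, beside 0.02 over all genes. The CTR libraries are the same as in the first comparison.

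**Figure D4:**
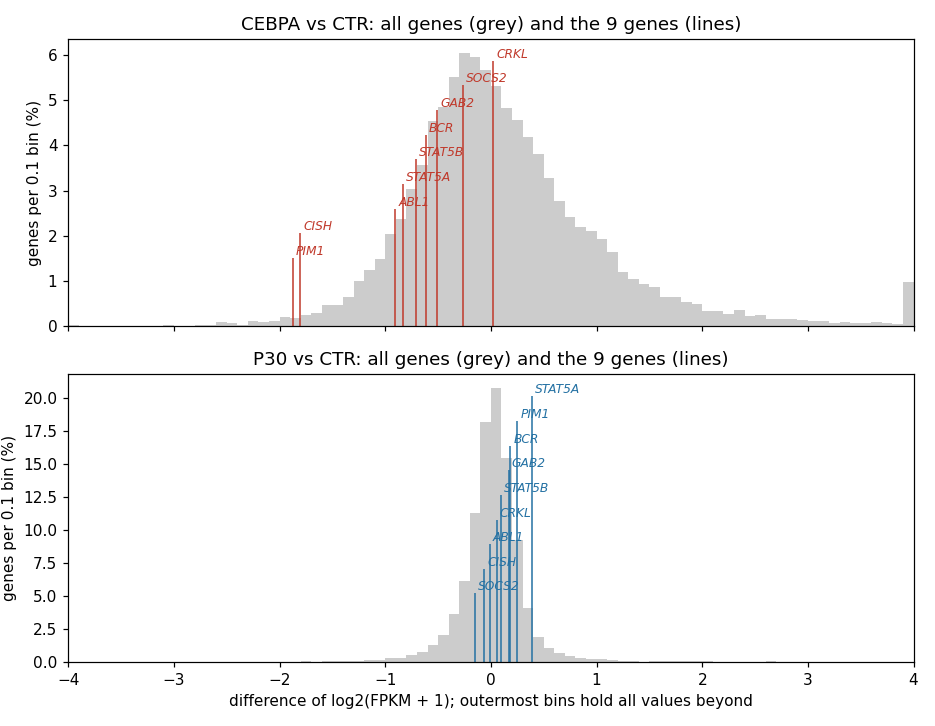
Differences of log2(FPKM + 1) in CEBPA vs CTR (top) and P30 vs CTR (bottom): grey bars give the percentage of all genes compared per bin of 0.1, and lines mark the 9 genes, their heights serving only to separate the names. PIM1 (-1.87) and CISH (-1.81) lie in the lower tail at the top, and all 9 genes lie between -0.15 and 0.39 at the bottom.

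The third comparison sets the CEBPA line against the P30 line. The paper's Western blot is described as showing both the full-length and the p30 protein in the CEBPA line. The comparison therefore does not set the isoforms apart. In CEBPA vs P30, 3 of 9 genes, PIM1, CISH and STAT5A, were lower by 2-fold and 0 were higher, where 5.79% of 13569 genes were lower and 13.1% higher. With a fold of 1.5, 7 of 9 were lower and 0 higher, against 17.8% and 22.3% of genes. PIM1 had a difference of -2.12, and 45 genes (0.332%), itself included, were as low or lower. CISH had -1.74 (0.722% as low or lower) and STAT5A -1.22 (2.88%). ABL1, with -0.89, STAT5B, with -0.81, BCR, with -0.80, and GAB2, with -0.68, followed. SOCS2 and CRKL were again the most level, with -0.11 and -0.04. This comparison shares the CEBPA libraries with CEBPA vs CTR, so that its values are no second observation of the same difference.

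The other genes of the pathway were taken from lists by role, with 79 names used here, of which 70 had a row. In CEBPA vs CTR, 6 of the 67 over the filter were lower and 8 higher by 2-fold, that is 8.96% and 11.9%, beside 6.92% and 14.0% of all genes. Their median difference was -0.08. With a fold of 1.5 the shares were 29.9% lower and 19.4% higher, against 18.6% and 24.0% of all genes. In CEBPA vs P30, 11 of 68 were lower and 4 higher by 2-fold, or 16.2% and 5.88%, where all genes gave 5.79% and 13.1%. Lower genes thus outnumbered higher ones in this comparison and at 1.5-fold, the opposite of the balance over all genes.

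The other STAT5 target genes were mostly below CTR in CEBPA. Of the 12 with a row, 9 had a difference below 0, and the median was -0.66, beside -0.01 over all genes. By 2-fold, 3 were lower (25.0%, beside 6.92% of all genes) and 2 higher (16.7%, beside 14.0%). By 1.5-fold, 8 were lower (66.7%, beside 18.6%) and 2 higher (16.7%, beside 24.0%). In CEBPA vs P30, 5 were lower (41.7%, beside 5.79% of all genes) and 1 higher (8.33%, beside 13.1%) by 2-fold. SOCS1, an inhibitor of JAK kinases, had 7.47 FPKM in CTR, against 1.58 in CEBPA and 7.07 in P30, a difference of -1.71. BCL2L1, which encodes the survival factor BCL-XL, had 82.2, 26.7 and 95.6 FPKM, a difference of -1.58. PIM2, a close relative of PIM1, had 74.4, 31.4 and 94.8 FPKM, a difference of -1.22. The genes that were higher were BCL6, a transcriptional repressor, with 5.44, 18.2 and 3.07 FPKM, and MCL1, another survival factor of the BCL2 family, with 77.4, 158 and 91.5. MCL1 and BCL2L1 were at similar levels in CTR and P30, with a ratio of 0.943 and 0.957, and far apart in CEBPA, where it was 5.93. Of the D-type cyclins, CCND3 had 183, 99.7 and 259 FPKM, which passed 2-fold only in CEBPA vs P30 (-1.37). ID1, an inhibitor of helix-loop-helix factors, had 48.0, 27.7 and 89.2 FPKM and also passed there (-1.65), and MYC, a transcription factor of cell growth, had 81.8, 56.3 and 102. In P30 vs CTR, 0 of 11 passed, where 0.613% of all genes were lower and 1.02% higher. The extremes were ID1 with 0.88 and SOCS3 with -0.74, the latter at 13.4 (CTR), 8.49 (CEBPA) and 7.61 FPKM (P30).

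The PIM kinases together summed to 371 (CTR), 119.6 (CEBPA) and 444 FPKM (P30). PIM3 had 23.5, 14.4 and 24.2 FPKM. PIM1 made up 73.6% of the sum in CTR, 61.7% in CEBPA and 73.2% in P30, so that it was the main PIM transcript in each group.

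Kinases and inhibitors upstream of STAT5 were compared next. JAK2, which phosphorylates STAT5 below the erythropoietin receptor, had 9.42 FPKM in CTR, against 4.80 in CEBPA and 12.1 in P30, a difference of -0.84 from CTR in CEBPA and of -1.17 from P30. JAK1 and TYK2, the more abundant JAK genes, differed by -0.23 and -0.36 in CEBPA vs CTR. Of 12 inhibitors of JAK-STAT signaling, 1 was lower and 1 higher by 2-fold in that comparison. That is 8.33% each, beside 6.92% and 14.0% of all genes. The lower one was SH2B3, the adaptor LNK, with 23.7, 11.3 and 21.1 FPKM, just at the threshold and under it when centred on the median (-0.99), and the higher one SOCS7, with 3.95, 9.04 and 5.16. PTPN6, the phosphatase SHP1, had 5.47, 2.38 and 7.09 FPKM and passed in CEBPA vs P30, with -1.26, and in CEBPA vs CTR only with a pseudocount of 0.1 (-1.17, in place of -0.94). In P30 vs CTR, 0 of these 12 inhibitors passed, where 0.613% of all genes were lower and 1.02% higher.

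Among the other adaptors and docking proteins, 10 of the 11 with a row were over the filter in CEBPA vs CTR. By 2-fold, 1 was lower and 1 higher, or 10.0% each, near the 6.92% and 14.0% of all genes. In CEBPA vs P30, 2 of 11 were lower (18.2%, beside 5.79% of all genes) and 1 higher (9.09%, beside 13.1%). INPP5D, the lipid phosphatase SHIP1, was lower, with 17.9 (CTR), 7.02 (CEBPA) and 23.6 FPKM (P30). CBLB, a ubiquitin ligase that ends tyrosine kinase signals, was higher, with 3.92, 9.91 and 3.32 FPKM. DOK1, a docking protein phosphorylated by BCR-ABL, had 19.2, 9.52 and 22.5 FPKM, a difference of -0.94 from CTR in CEBPA and of -1.16 from P30. SOS1, the exchange factor that GRB2 brings to RAS, was level, with 17.5, 17.1 and 19.7 FPKM. PTPN11, the phosphatase SHP2 bound by GAB2, had 37.4, 44.1 and 40.5.

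In the RAS to ERK cascade the paralogs of MEK had differences of opposite sign in CEBPA vs CTR. MAP2K1, the kinase MEK1, had 26.5 FPKM in CTR, against 54.2 in CEBPA and 27.5 in P30, a difference of 1.01, whereas MAP2K2, or MEK2, had 126, 90.1 and 118, a difference of -0.48. MAPK3, or ERK1, had 57.3, 31.3 and 56.0 FPKM, a difference of -0.85, and BRAF differed by 0.90. Of the 7 genes of the cascade reported here, MAP2K1 alone passed 2-fold in CEBPA vs CTR, and with upper quartile scaling it fell just short (0.99). That is 14.3% higher, beside 14.0% of all genes, and 0 lower, beside 6.92%. NRAS was not analysed here.

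ERK target and feedback genes included the largest rises of the lists, with 3 of 9 higher (33.3%, beside 14.0% of all genes) and 1 lower (11.1%, beside 6.92%) in CEBPA vs CTR. FOS, an immediate early gene, had 2.21 (CTR), 21.2 (CEBPA) and 1.66 FPKM (P30), a difference of 2.79, and EGR1, another, had 34.6, 125 and 21.8, a difference of 1.82. DUSP5, a phosphatase of ERK, had 0.979, 3.20 and 1.22 FPKM, near the level where the added 1 damps a difference. ETV4, an ETS factor, was lower, with 26.5, 11.2 and 28.9 FPKM.

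In the PI3K to AKT arm, 0 of the 11 genes reported here were higher and 0 lower by 2-fold in CEBPA vs CTR, beside 14.0% and 6.92% of all genes. AKT1 had 60.6 FPKM in CTR, against 43.5 in CEBPA and 64.0 in P30, and AKT2 had 87.9, 61.1 and 103. PIK3CG, the gamma catalytic subunit, had 6.95, 12.8 and 15.5 FPKM, a difference of 1.06 in P30 vs CTR. It was the 1 gene that passed 2-fold there of the 66 over the filter in these lists. This is 1.52%, beside 1.02% of all genes higher. PIK3CD, the delta subunit, had 13.0, 6.63 and 16.6 FPKM and passed only in CEBPA vs P30, with -1.21.

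**Figure D5:**
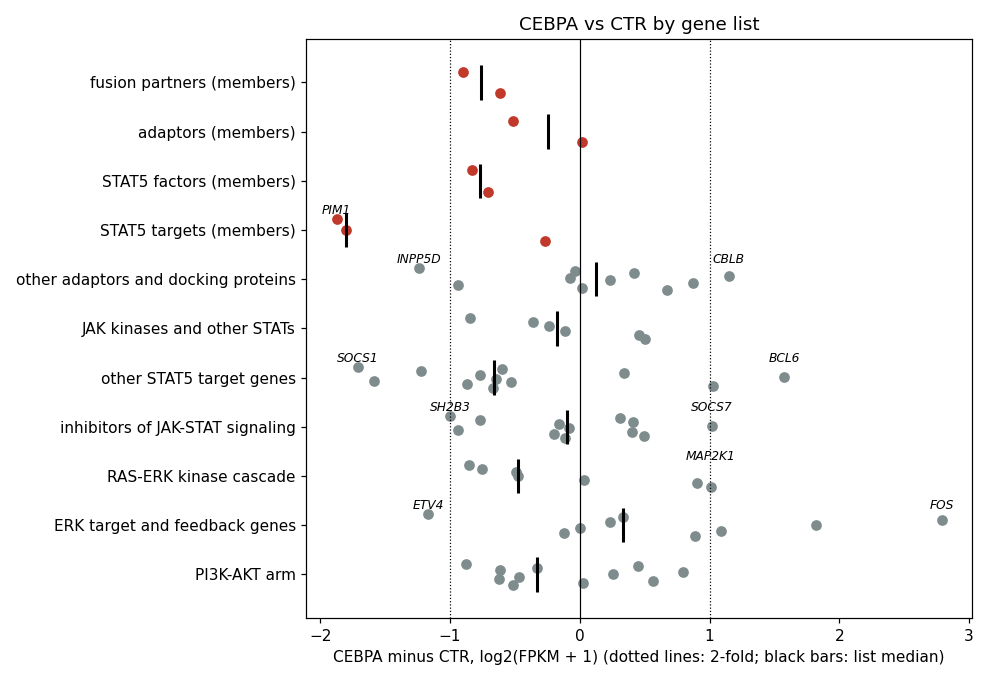
CEBPA minus CTR of log2(FPKM + 1) for each gene over the filter, by list: red points are the 9 genes of the set, grey points the other pathway genes, black bars list medians and dotted lines 2-fold. PIM1 and CISH (-1.87 and -1.81) lie at the left edge together with SOCS1 (-1.71), and FOS (2.79) lies furthest right.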

How the data were processed

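RNA-seq of 6 K562 samples was used, 2 replicates each of CTR, CEBPA and P30. Stranded read pairs were aligned by the authors with TopHat (hg19) and assembled with Cufflinks (Gencode reference), and the deposited FPKM are Cuffdiff estimates, 1 value per gene and group in 3 tables. The replicates, sequenced in separate runs, are pooled in these values, so that the counts behind a value are not given in the files and no error or test was computed. How reads fitting several genes were shared is not given in the sources used here.

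Differences of log2(FPKM + 1) were taken within each table for genes above 1 FPKM in either of its 2 groups, and counted at 2-fold. The computation was run on simulated data with large changes in genes above 5 FPKM, which checks the code and not genes near the threshold or the filter. Genes, lists and motifs were chosen with earlier results of these data known. Named were the 10 genes of the set, listed genes past 2-fold in any pair, those at either end of a list in CEBPA vs CTR, and the 3 genes nearest in pattern. Other listed genes were named after their values were seen. Some listed genes are not reported here, and the counts and sums of their lists leave them out. Alternatives were a pseudocount of 0.1, centring on the median, upper quartile scaling, no filter or a filter at 5 FPKM, summed rows of a symbol, and a fold of 1.5. Promoter windows came from RefSeq (GRCh38.p14 table) and were placed on GRCh37 by exact match, and gene positions from Gencode on GRCh37. Python 3.11.15, numpy 2.4.6, pandas 2.3.3 and matplotlib 3.10.9 were used.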

Additional observations from a re-analysis of the deposited data

How the results depend on the processing

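No paired analysis was possible because each deposited column holds 1 value per group with the replicates pooled, and for the same reason neither the replicate block nor leaving out a replicate could be run. With no replicate spread, a log2 value was taken as moved at a shift of 0.20 or more, and a count at over 1.5 times. All 162 recomputed differences of the 9 genes stayed within this limit, and of 1446 recomputed values of the set and the lists 26 moved and 0 changed direction at 2-fold or more. Much of this was fixed in advance. The filters and summed rows cannot alter the difference of a gene with 1 row. Centring shifts all genes alike, by medians of -0.01, 0.02 and -0.04, and the scaling factors were 1.01, 1.00 and 0.990. Only the pseudocount could move a difference by 0.20. A pseudocount of 0.1 took DOK1, PTPN6 (-1.17) and SPRY1 (1.60) past 2-fold in CEBPA vs CTR, and DOK2 (-1.66), DUSP5 (1.32) and SPRY4 (1.05) in CEBPA vs P30. SH2B3 was lost with centring and MAP2K1 with upper quartile scaling. A fold of 1.5 in place of 2 moved counts by its construction. Genes of the set that were lower then numbered 6 against CTR and 7 against P30 in the CEBPA comparisons. Other pathway genes numbered 13 higher and 20 lower in CEBPA vs CTR (19.4% and 29.9%, beside 24.0% and 18.6% of all genes). They numbered 10 and 18 in the comparison of CEBPA with P30 (14.7% and 26.5%, beside 22.3% and 17.8%), and 2 and 3 in P30 vs CTR (3.03% and 4.55%, beside 2.69% and 2.63%). Over all genes, a pseudocount of 0.1 gave 200 higher and 184 lower in P30 vs CTR, in place of 126 and 76. A smaller pseudocount damps each difference less, so that these counts could not fall. Which genes were added over all genes was not looked at.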

Other observations

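The genes nearest in pattern were looked up for CISH and PIM1, by the distance between pairs of differences (CEBPA minus CTR and P30 minus CTR) over the 3 groups, among 13670 genes. Nearest to CISH was PSRC1, with 38.7 (CTR), 10.2 (CEBPA) and 36.4 FPKM (P30), at a distance of 0.027 on the log2 scale. EFHD1 and the amino acid transporter gene SLC1A5 followed, at 0.044 and 0.058, and SLC1A5 had 221, 65.2 and 212 FPKM. Within a distance of 0.1 there were 8 genes for CISH and 1 for PIM1. That gene was ACVRL1, which encodes a receptor of the TGF-beta family, with 3.78, 0.377 and 4.75 FPKM at a distance of 0.080, and ADAMTS14 and the laminin gene LAMB2 came next, at 0.10 and 0.12. The likeness of ACVRL1 to PIM1 holds on the log2(FPKM + 1) scale, where the added 1 damps the difference of a gene at so low a level. With 3 pooled values per gene, such a likeness is a description only.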
